A study of Rattus norvegicus with 24 samples.

Results

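The 8 genes described here encode transcription factors known for their part in axon regeneration: the Sox genes Sox11 and Sox4, the Krüppel-like factors Klf4, Klf6, Klf7 and Klf9, the bone morphogenetic protein (BMP) signal transducer Smad1, and Myc. They were taken as a list of symbols, and all 8 were found among the 14324 genes that the array platform names by a single symbol. For Klf4, which has 2 probes, the brighter probe was used. In the rat build GRCr8 they lie on chromosome 6 (Sox11), 17 (Sox4 and Klf6), 5 (Klf4), 9 (Klf7), 1 (Klf9), 19 (Smad1) and 7 (Myc). The choice was made with earlier results of these data known. Sox11 also belongs to the regeneration genes that the study chose to follow on these arrays, so its values are not independent of that choice. The study reported Sox11 as significantly up-regulated after injury. That call came from a permuted analysis of variance of treatment and time within the study's own gene list. The tests given here are instead adjusted over all probes tested, so the calls can differ. Each array held RNA from thoracic propriospinal (TPS) neurons of 1 female Long Evans rat of 77 ± 10 days. The neurons, which link thoracic to lumbar cord, had been labelled with a tracer injected into the lumbar enlargement and were cut out of the thoracic gray matter by laser. Of the 24 animals, 12 received a complete transection at the T9 level 1 week after the labeling and were taken 3 days (n = 4), 1 week (n = 4), 2 weeks (n = 2) or 1 month (n = 2) later. The other 12 were not injured and were taken 10 days, 3 weeks or 5 weeks after the labeling (n = 4 each), times that the labels of these controls give as 4 days, 2 weeks and 1 month. The 3-day and the 1-week animals share the 10-day controls, although the 1-week animals were taken 2 weeks after the labeling. The 2-week animals were set against the 3-week controls and the 1-month animals against the 5-week controls. All the animals carried the tracer.

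Axons of the adult spinal cord regrow poorly, while peripheral sensory neurons of the rat and mouse switch on a set of transcription factors after their axon is cut and then regrow it. Sox11 and Smad1 belong to that set, and in mice each of them supports the regrowth of sensory axons. Among the Krüppel-like factors, studies of rodent central neurons have placed Klf6 and Klf7 with the factors that favor axon growth and Klf4 and Klf9 with those that hold it back. Sox4 is the nearest relative of Sox11, and Myc drives the genes of growth and ribosome building.

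The promoters of Klf6, Sox11 and Klf9 are shown because the results at 3 days turn on these genes, of which Klf6 passed the test, Sox11 had an equal but more variable difference and Klf9 a difference near 0. RefSeq promoters of the build GRCr8, 250 bases before and 50 after the start site that the table uses, were at hand for 6 of the 8 members. For Klf6, Sox11 and Klf9 that site is the outer end of the annotated gene, while for Klf4, Klf7 and Smad1 it lies inside the annotated span. Capitals mark matches, on either strand, to 6 motifs, namely the AP-1 site TGACTCA, the core TGACG of the cyclic AMP element, the E-box of Myc and Max CACGTG, the GC box GGGCGG that Krüppel-like and Sp factors read, the BMP element GGCGCC and the TATA box TATAAA. No match overlapped another. The sequences run 5′ to 3′ on the strand of the gene, at chr17:69458429-69458728 (minus strand) for Klf6, chr6:49738745-49739044 (minus strand) for Sox11 and chr1:230126396-230126695 (plus strand) for Klf9.
Klf6: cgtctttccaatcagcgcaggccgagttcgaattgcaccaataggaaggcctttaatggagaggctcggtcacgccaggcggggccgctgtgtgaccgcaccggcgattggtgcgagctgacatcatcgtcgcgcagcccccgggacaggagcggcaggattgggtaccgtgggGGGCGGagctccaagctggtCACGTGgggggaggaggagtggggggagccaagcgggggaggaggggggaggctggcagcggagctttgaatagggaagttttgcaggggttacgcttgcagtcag
Sox11: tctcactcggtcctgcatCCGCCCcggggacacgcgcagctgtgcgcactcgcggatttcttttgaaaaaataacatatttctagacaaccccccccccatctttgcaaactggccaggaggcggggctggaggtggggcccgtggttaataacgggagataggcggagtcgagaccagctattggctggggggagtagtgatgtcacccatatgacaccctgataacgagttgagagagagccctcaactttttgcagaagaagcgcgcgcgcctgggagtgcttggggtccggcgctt
Klf9: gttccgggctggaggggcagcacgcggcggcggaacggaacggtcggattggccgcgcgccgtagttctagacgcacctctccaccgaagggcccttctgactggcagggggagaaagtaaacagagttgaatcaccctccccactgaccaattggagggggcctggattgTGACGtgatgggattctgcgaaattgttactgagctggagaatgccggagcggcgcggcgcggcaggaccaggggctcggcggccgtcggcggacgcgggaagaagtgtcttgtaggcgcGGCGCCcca

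The Klf6 promoter held 1 GC box and 1 E-box, that of Sox11 1 GC box, and that of Klf9 1 cyclic AMP core and 1 BMP element. A GC box was present in 33.1% of all 33465 promoters, an E-box in 6.42%, a cyclic AMP core in 21.2% and a BMP element in 11%. None of the 6 promoters held the AP-1 site (4.63% of all promoters). The Klf4 promoter had 2 matches to the TATA box (14.2%), the Klf7 promoter 1 GC box, and the Smad1 promoter 2 GC boxes and 1 cyclic AMP core. These are matches of letters and say nothing of what binds there.

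Levels are given as the log2 of the normalized array intensity, and a probe was tested where its mean lay above the 15th percentile of all probes. Of the 7 members above that filter, only Klf6 passed the test against controls, and only at 3 days. Over the whole array, 671 of 23240 probes passed in that comparison (2.89%, limma with Benjamini-Hochberg adjustment), and 2% passed as higher. The log2 intensity of Klf6 in the animals of 3 days was 6.77, 6.89, 6.91 and 6.94 (replicates 1 to 4), and in the 10-day controls 6.44, 6.50, 6.47 and 6.36. Every transected animal of 3 days lay above every control, as was so for 2.75% of the probes tested. The mean rose from 6.44 ± 0.06 to 6.88 ± 0.08 (SD, n = 4 each), a log2 difference of 0.44 (SE 0.09, 95% interval 0.25 to 0.62, 1.35-fold, adjusted p = 0.00767). In dissected tissue of this kind a change in RNA per neuron and a change in the cells caught in the cut cannot be told apart.

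The remaining 20 arrays held Klf6 between 6.30 and 6.74, so the 4 arrays of 3 days were also the highest of all 24. The share of probes for which that holds was not computed. The means of the other groups ran from 6.42 ± 0.07 in the 3-week controls through 6.44, 6.46, 6.52 and 6.54 to 6.59 ± 0.08 at 1 month, and neighbours in that order overlapped. Klf6 differed from its controls by 0.10 at 1 week (SE 0.09, 95% interval -0.09 to 0.28), 0.10 at 2 weeks (SE 0.11) and 0.13 at 1 month (SE 0.11), none of them past the test. At 2 weeks its 2 animals stood apart from each other, at 6.74 and 6.30. The difference between 3 days and 1 week itself passed the test, at 0.34 (SE 0.09, adjusted p = 0.0434), and the 1-week values of 6.61, 6.47, 6.41 and 6.66 all lay below those of 3 days, as was so for 3.72% of probes. Klf6 was the only member to pass there, beside 2.47% of all probes, and its call was close to the threshold. Its effect at 3 days exceeded that at 2 weeks by 0.33 (SE 0.14, adjusted p = 0.62) and that at 1 month by 0.31 (SE 0.14, adjusted p = 0.642).

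The Klf6 call at 3 days was lost in a fit to the compared groups alone (adjusted p = 0.09) and with 10-day controls 1 and 2 only (log2 difference 0.41, adjusted p = 0.0751). It was also lost by the methods' t-test (adjusted p = 0.205), which called 0 of all probes at 3 days. Across the alternatives run, the Klf6 difference ran from 0.41 to 0.47.

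**Figure D1:**
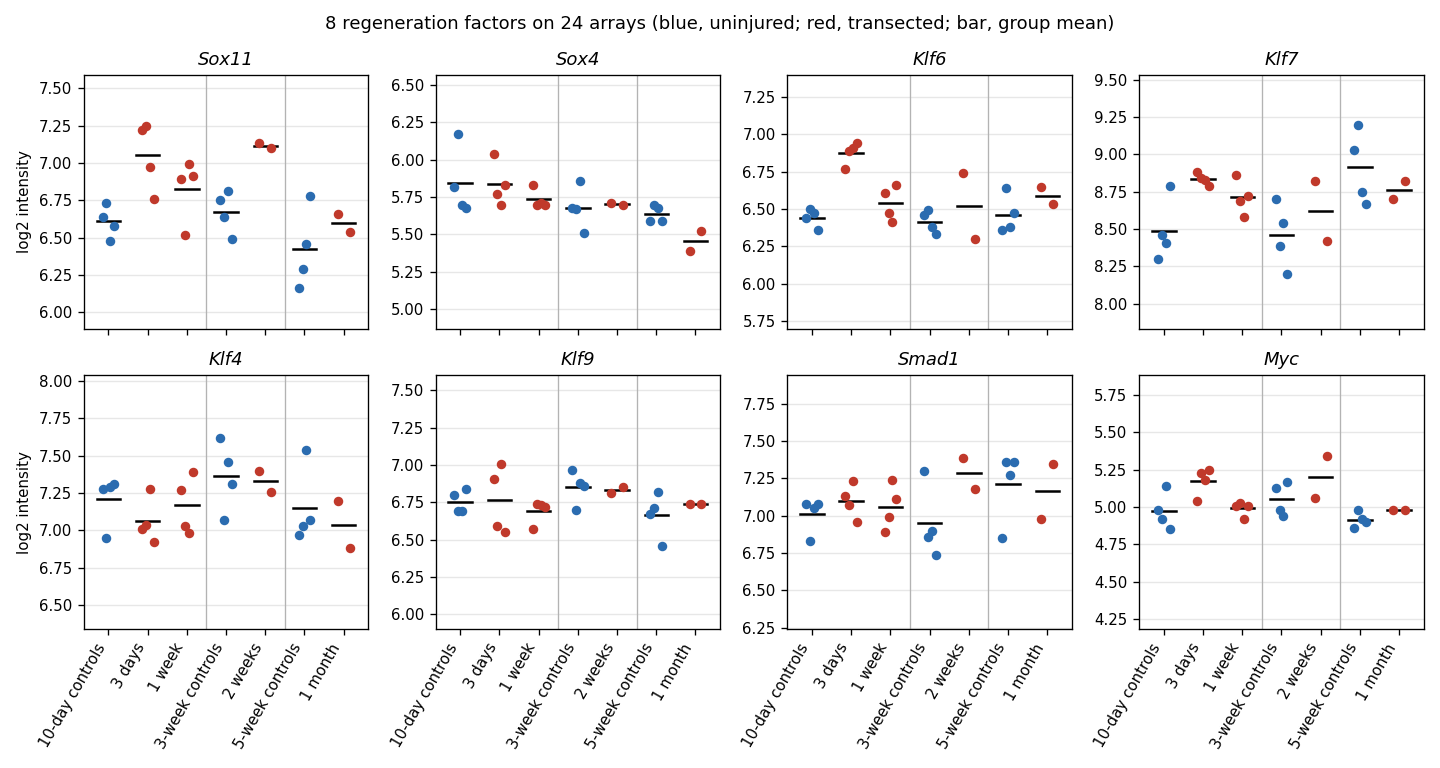
The log2 intensity (y axis, a window of the same height for each gene) of the 8 factors on each array, by group (x axis), with uninjured animals in blue, transected animals in red and the group mean as a bar, and each set of controls next to the transected groups set against it. The 4 animals of 3 days stand above all the others for Klf6, and the 2-week animals of Sox11 lie above their controls.

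Klf7 was higher at 3 days by a similar amount but did not pass. Its 3-day values were 8.88, 8.84, 8.83 and 8.79 (SD 0.04), and its 10-day controls stood at 8.30, 8.46, 8.41 and 8.79. The highest control, replicate 4, lay just above the lowest animal of 3 days, with the same value to 2 decimals, so the groups overlapped. The log2 difference was 0.34 (SE 0.13, 95% interval 0.08 to 0.61, adjusted p = 0.174, exact permutation p = 0.0571, two-sided), and without that control it was 0.44 (adjusted p = 0.0745). Over 36 alternatives, none of which passed, that was the lowest adjusted p, and the highest was 0.48. With all 12 controls pooled the difference was 0.21 (adjusted p = 0.405), and without 10-day control 1 it was 0.28 (adjusted p = 0.373). At 1 week Klf7 differed by 0.22 (SE 0.13), at 2 weeks by 0.16 (SE 0.15), and at 1 month by -0.15 (SE 0.15).

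Klf7 was the only member that passed the test between uninjured groups. The 5-week controls held 9.03, 9.20, 8.75 and 8.67, against 8.70, 8.39, 8.54 and 8.20 in the 3-week controls. The means of 8.91 ± 0.24 and 8.46 ± 0.21 (SD, n = 4 each) differed by 0.46 (SE 0.13, 95% interval 0.19 to 0.72, adjusted p = 0.0277), although the lowest 5-week control lay below the highest 3-week control. In this comparison 2366 of 23240 probes passed, 10.2%. Between 5-week and 10-day controls Klf7 differed by 0.42 (SE 0.13, adjusted p = 0.18), and between 3-week and 10-day controls by -0.03 (SE 0.13). The 5-week controls thus had the highest mean of the 7 groups for this gene, above the 8.83 ± 0.04 of 3 days, whose range lay inside theirs. The 1-month animals, at 8.70 and 8.82, are measured against these high controls. The call was lost when the arrays were quantile-normalized again (0.29, adjusted p = 0.187) or normalized by cyclic loess (0.30, adjusted p = 0.172).

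Sox11 had the same log2 difference as Klf6 at 3 days with a wider spread. Its values were 7.22, 7.25, 6.97 and 6.76 at 3 days and 6.64, 6.73, 6.48 and 6.58 in the 10-day controls. The groups did not overlap, which was so for 5.51% of the probes tested, and in the higher direction for 2.75%. Replicate 4 lay only just above the highest control. The means of 7.05 ± 0.23 and 6.61 ± 0.10 (SD, n = 4 each) differed by 0.44 (SE 0.13, 95% interval 0.17 to 0.71, 1.36-fold), which did not pass after adjustment (adjusted p = 0.0683, exact permutation p = 0.0286, two-sided, the smallest that 4 against 4 animals allow).

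At 2 weeks Sox11 stood at 7.13 and 7.10, above all 4 of the 3-week controls, which held 6.75, 6.64, 6.81 and 6.49. That difference was also 0.44 (SE 0.16, 95% interval 0.11 to 0.77, adjusted p = 0.801), beside 9.9% of probes whose 2 animals lay above all their controls. At 1 week the values were 6.89, 6.52, 6.99 and 6.91, where replicate 2 fell among the controls (difference 0.22, SE 0.13). At 1 month they were 6.66 and 6.54, inside the 5-week controls at 6.16 to 6.78 (difference 0.18, SE 0.16). Sox11 was thus above its controls by its point estimate at all 4 times, with a mean difference over the times of 0.32 (SE 0.08, 95% interval 0.16 to 0.48, adjusted p = 0.0938). For Klf6 that mean was 0.19 (SE 0.05, adjusted p = 0.162), and no member passed in it, where 94 probes did (0.404%). At an unadjusted p under 0.05 the mean difference singled out Sox11 and Klf6 among the 7 members, beside 8.87% of all probes. The methods' 2-factor analysis of variance called 1 member, Sox11 (adjusted p = 0.0419). As run here it entered the 10-day controls for both 3 days and 1 week, so these animals were counted more than once. The Sox11 group means ran from 6.42 ± 0.27 in the 5-week controls through 6.60, 6.61, 6.67, 6.83 and 7.05 to 7.11 ± 0.03 at 2 weeks, and neighbours in that order overlapped.

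Sox11 passed at 3 days in 3 of 36 alternatives. These were all 12 controls pooled (log2 difference 0.48, adjusted p = 0.00601) and without replicate 4 of the 3-day animals (0.54, adjusted p = 0.0378). The last was without replicate 4 of the 5-week controls (adjusted p = 0.0411), which enter this comparison only through the shared spread. In the other 33 it did not pass, among them the compared groups alone (adjusted p = 0.252) and the methods' t-test (adjusted p = 0.457). Without 3-day replicate 1 or 2 the adjusted p was 0.199 and 0.214. With 10-day controls 1 and 2 only, the difference was 0.37 (adjusted p = 0.374).

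Sox4 did not pass the test at any time. Its values at 3 days were 6.04, 5.77, 5.70 and 5.83 and in the 10-day controls 5.82, 6.17, 5.70 and 5.68, with wide overlap. The log2 difference of -0.01 (SE 0.10) had a 95% interval from -0.21 to 0.20, so that a rise of the size measured for Sox11 lies outside it. The differences at 1 week, 2 weeks and 1 month were -0.11 (SE 0.10), 0.03 (SE 0.12) and -0.18 (SE 0.12). At 1 month both animals, at 5.39 and 5.52, lay below all 4 of the 5-week controls (5.59 to 5.70). Groups at 1 month did not overlap, in either direction, for 13.5% of probes, and the adjusted p for Sox4 was 1. Sox4 has a dim probe, at the 34.5th percentile of mean intensity, and its group means spanned only 5.45 to 5.84.

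The members that the literature on rodent neurons counts as brakes on growth, Klf4 and Klf9, did not pass the test at any time. Klf4 stood at 7.01, 7.04, 7.28 and 6.92 at 3 days and at 7.28, 6.95, 7.29 and 7.31 in the 10-day controls. The log2 difference was -0.15 (SE 0.14, 95% interval -0.43 to 0.14, adjusted p = 0.74), and at the later times it was -0.04, -0.03 and -0.12. Its second probe was not above the filter and ran from 4.83 to 5.30 over the 24 arrays. In the fit to all probes it differed by -0.03 at 3 days, -0.16 at 1 week, -0.02 at 2 weeks and 0.19 at 1 month, never past the test. At 1 month it thus went the other way from the probe used, with both animals above all the 5-week controls. Groups at 1 month did not overlap, in either direction, for 13.5% of the probes tested.

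Klf9 differed by 0.01 at 3 days (SE 0.10, 95% interval -0.19 to 0.21, adjusted p = 0.986). The 3-day animals fell at 6.91, 6.59, 7.01 and 6.55, on either side of the controls at 6.80, 6.69, 6.69 and 6.84. At 1 week, 2 weeks and 1 month it differed by -0.07 (SE 0.10), -0.02 (SE 0.12) and 0.08 (SE 0.12), and its 7 group means lay between 6.67 and 6.85.

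Smad1, which carries the BMP signal from receptor to nucleus, differed by 0.09 at 3 days (SE 0.13, 95% interval -0.18 to 0.35, adjusted p = 0.864). Its 3-day values of 7.13, 7.07, 7.23 and 6.96 lay around controls of 7.08, 6.83, 7.05 and 7.08. The widest gap was at 2 weeks, where the animals held 7.39 and 7.18 against 7.30, 6.86, 6.90 and 6.74. That difference of 0.33 (SE 0.16, 95% interval 0.01 to 0.66, adjusted p = 0.919) left the groups overlapping, since 3-week control 1 was higher than 1 of the animals. At 1 week it was 0.05 (SE 0.13) and at 1 month -0.04 (SE 0.16), and the group means ran from 6.95 ± 0.24 in the 3-week controls to 7.28 ± 0.15 at 2 weeks.

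Myc had a mean log2 intensity of 5.03, at the 14.5th percentile, just under the filter of 5.05, and it was tested only in a fit to all 27342 probes. It held 5.04, 5.23, 5.18 and 5.25 at 3 days and 4.98, 4.92, 5.14 and 4.85 in the 10-day controls, where replicate 3 overlapped the transected animals. The log2 difference was 0.20 (SE 0.07, 95% interval 0.05 to 0.35, adjusted p = 0.19). The 3-day values lay above all those of 1 week, at 5.01, 5.03, 4.92 and 5.01 (difference 0.18, SE 0.07, adjusted p = 0.299), as was so for 3.36% of all 27342 probes. At a signal so near the bottom of the array a fold change is understated, and the arrays set no separate limit of detection.

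**Figure D2:**
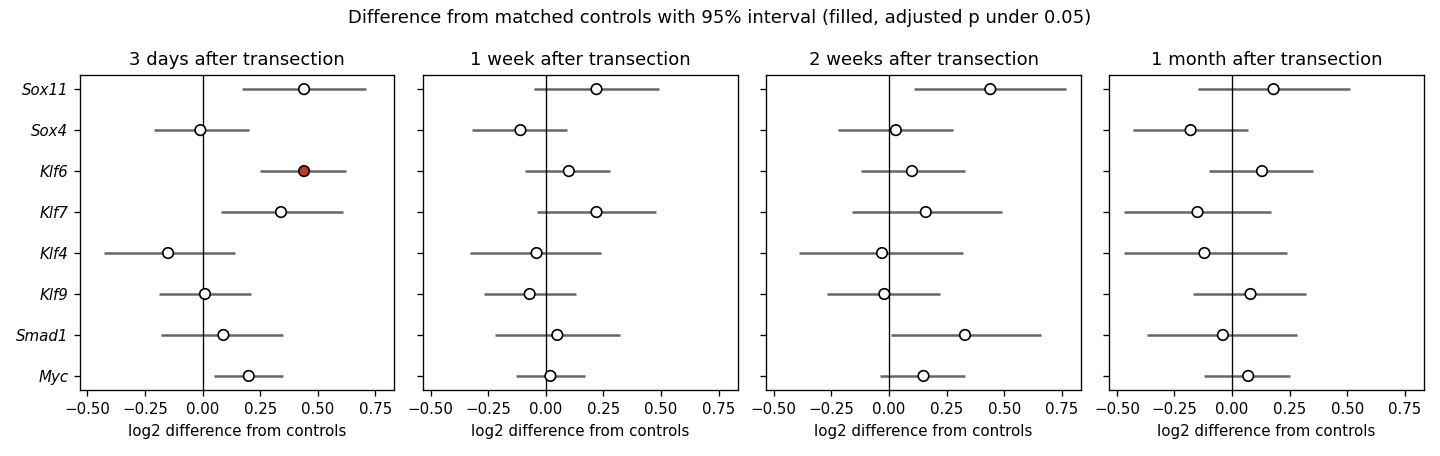
The log2 difference of each factor from the controls set against each time after transection (x axis), 1 panel for each time. Lines show the 95% interval of the fit, and filled points an adjusted p under 0.05. Only Klf6 at 3 days is filled, and the intervals of Sox11 at 3 days and 2 weeks, Klf7 and Myc at 3 days and Smad1 at 2 weeks lie above 0.

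No member passed at 1 week, 2 weeks or 1 month (limma), and neither did any probe of the array (0%). At an unadjusted p under 0.05 there were 0 members at 1 week, 2 at 2 weeks (Sox11 and Smad1) and 0 at 1 month, beside 4.44%, 5.29% and 3.44% of the probes. The methods' t-test with the same adjustment called 0 members at these times. No member passed in the comparison of the 3-day effect with that of 2 weeks or of 1 month, where 0.0904% of probes did each time. At an unadjusted p under 0.05 Klf6 did so in both and Klf7 in the second (difference 0.49, SE 0.20, adjusted p = 0.55), beside 6.98% and 7.22% of probes. Between the controls, 0 members passed from 10 days to 3 weeks (0% of probes, 14.3% unadjusted) and 0 from 10 days to 5 weeks (0.0043%, 13.2% unadjusted), where Sox4 (-0.20, SE 0.10) and Klf7 had an unadjusted p under 0.05.

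No other gene of the Sox, Klf or Smad families passed at 3 days against the 10-day controls. Of 12 other Sox genes above the filter, none passed (limma; the methods' t-test also called 0), 1 at an unadjusted p under 0.05, with a median log2 difference of -0.08 beside -0.008 over all probes. Sox10, a factor of oligodendrocytes, had the smallest p, at -0.17 (SE 0.06, adjusted p = 0.204). Of 16 other Klf and Sp genes none passed (median 0.01). The metabolic regulator Klf15 stood at 0.26 (SE 0.09, adjusted p = 0.132) and Klf12 at -0.47 (SE 0.17, adjusted p = 0.153). At an unadjusted p under 0.05 there were 3 of the 16, and the methods' t-test called 0. With all 12 controls pooled, 1 was called higher and 1 lower, Klf15 and Klf12. Klf6 and Klf7 thus had higher point estimates than any of these 16.

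**Figure D3:**
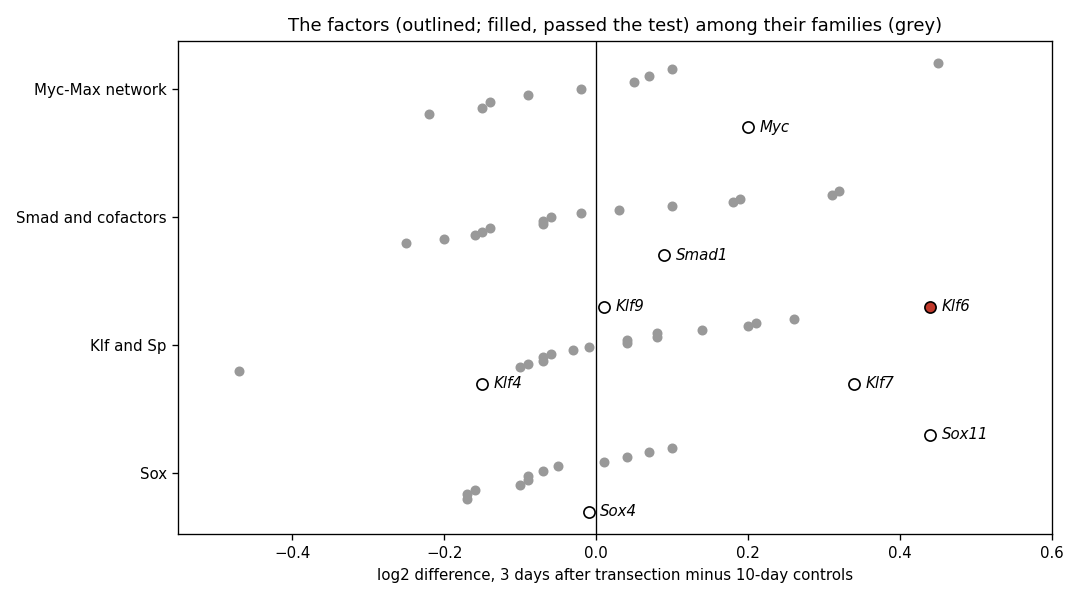
The log2 difference at 3 days (x axis) of the 8 factors (outlined and named) and of the other measured genes of their families (grey, spread vertically only to separate them), with the factor that passed the test filled. Klf6 at 0.44 lies to the right of the 16 other Klf and Sp genes and Sox11 at 0.44 to the right of the 12 other Sox genes.

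Around Smad1, none of 15 other Smads and cofactors passed at 3 days (median -0.06), and none of 38 ligands, receptors and antagonists of the BMP and TGF-beta pathway did (median -0.05). The corepressor Tgif1 (0.32, SE 0.16, adjusted p = 0.392) and Runx1 (0.31, SE 0.16, adjusted p = 0.398) had the smallest p of the first list. The type III receptor Tgfbr3 had the smallest p of the second list, at 0.32 (SE 0.13, adjusted p = 0.215), and the activin receptor Acvr1c stood at -0.29 (SE 0.13, adjusted p = 0.322). Of 11 genes that BMP and Smad1 are known to induce, none passed, and the Id genes that serve as the usual readout stood at -0.08 (Id1), -0.28 (Id2), 0.17 (Id3) and -0.23 (Id4, SE 0.08, adjusted p = 0.129). At an unadjusted p under 0.05 there were 0, 2 and 2 genes in these 3 lists, and the methods' t-test called 0 in each. With all 12 controls pooled the second list had 1 higher and 1 lower call. Between 3 days and 1 week the activin subunit Inhba was lower at 3 days, by -0.54 (SE 0.13), and so was the Smad anchor Zfyve9, by -0.32 (SE 0.08), each past the test. Both calls were lost with all 12 controls pooled and by the methods' t-test, and that of Inhba also with the replicate block. Between 5-week and 3-week controls, Msx1 (-0.48), Fstl3 (-0.29), Zfyve9 (0.26) and the Sox gene Sox12 (-0.40) passed, beside 10.2% of all probes. In that comparison the median log2 difference was -0.046 over all probes tested and 0.073 over probes above the median intensity. After repeated quantile normalization the median over all probes tested was 0.002. These calls were not followed under another normalization.

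Around Myc, none of 9 network genes passed at 3 days. Mxd4, which competes with Myc for Max, had the smallest p, at 0.45 (SE 0.14, adjusted p = 0.105), and was the 1 gene of the 9 at an unadjusted p under 0.05. The methods' t-test called 0 in this list and in the next, and with all 12 controls pooled 1 of the 9 was called higher. Of 27 target genes, lactate dehydrogenase Ldha rose by 0.46 (SE 0.11, adjusted p = 0.0231) and the nucleolar Nolc1 fell by 0.29 (SE 0.07, adjusted p = 0.0256). The other 25 did not pass, and the median was -0.01. Both calls were lost with 10-day controls 1 and 2 only. Between 5-week and 3-week controls, the nucleolar Nop56 (0.37) and the nucleotide kinase Nme1 (0.34) were higher and the spermidine synthase Srm lower (-0.36). Each was past the test, beside 10.2% of all probes, and was not followed under another normalization.

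Some known targets of the Sox and Klf members were among the 2% of probes that passed as higher at 3 days. The study had already reported Tubb3 and Gap43 as up-regulated on these arrays, so their calls are not independent of that report. Tubb3, a neuronal tubulin that Sox11 and Sox4 induce in the developing nervous system, rose from 9.67 to 9.98 in the controls to 10.05 to 10.28 (difference 0.34, SE 0.08, adjusted p = 0.0192), and the other 6 genes of its list did not pass. Of 5 targets of Klf7 or Klf6, the cell cycle inhibitor Cdkn1a rose by 1.11 (SE 0.21, adjusted p = 0.00427) and the growth cone protein Gap43 by 0.28 (SE 0.07, adjusted p = 0.0214). Gap43 ran from 10.69 to 10.89 in the controls and from 11.04 to 11.17 at 3 days. L1cam and Cdkn1b stood at 0.14 and 0.17 and did not pass. In the mean over the 4 times Cdkn1a (0.58, SE 0.13) and Gap43 (0.19, SE 0.04) passed, beside 0.404% of all probes. Between 5-week and 3-week controls Tubb3 did (0.35, SE 0.08), beside 10.2% of all probes, and was not followed under another normalization. Each of these calls at 3 days was lost with 10-day controls 1 and 2 only, where 0 of the 7 and 0 of the 5 targets passed, and by the methods' t-test.

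Klf9 is a textbook target of the glucocorticoid receptor, and other genes of that kind were set beside it. Of 14 above the filter, 5 rose at 3 days, beside 2% of all probes that passed as higher, and 9 did not pass. All 14 estimates were above 0 (median log2 difference 0.41). The 5 included the pyruvate dehydrogenase kinase Pdk4 (1.37, SE 0.20), the sulfotransferase Sult1a1 (1.22, SE 0.18), the receptor's own co-chaperone Fkbp5 (1.01, SE 0.24) and the kinase Sgk1 (0.90, SE 0.23). The other was Cdkn1a, which is also counted among the Klf targets above. Pdk4, which is also in the study's own list of the largest increases, ran from 6.85 to 7.52 in the 10-day controls. It held 8.13 to 8.98 at 3 days and 6.87 to 7.17 at 1 week. Its difference between 3 days and 1 week was 1.53 (SE 0.20), and Sult1a1, Sgk1 and Fkbp5 also passed there. Tsc22d3, as classical a target as Klf9, differed by 0.01 (SE 0.09, adjusted p = 0.992). With 10-day controls 1 and 2 only, a setting added for this list after its values were seen, 3 of the 14 passed, and by the methods' t-test 0 did.

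**Figure D4:**
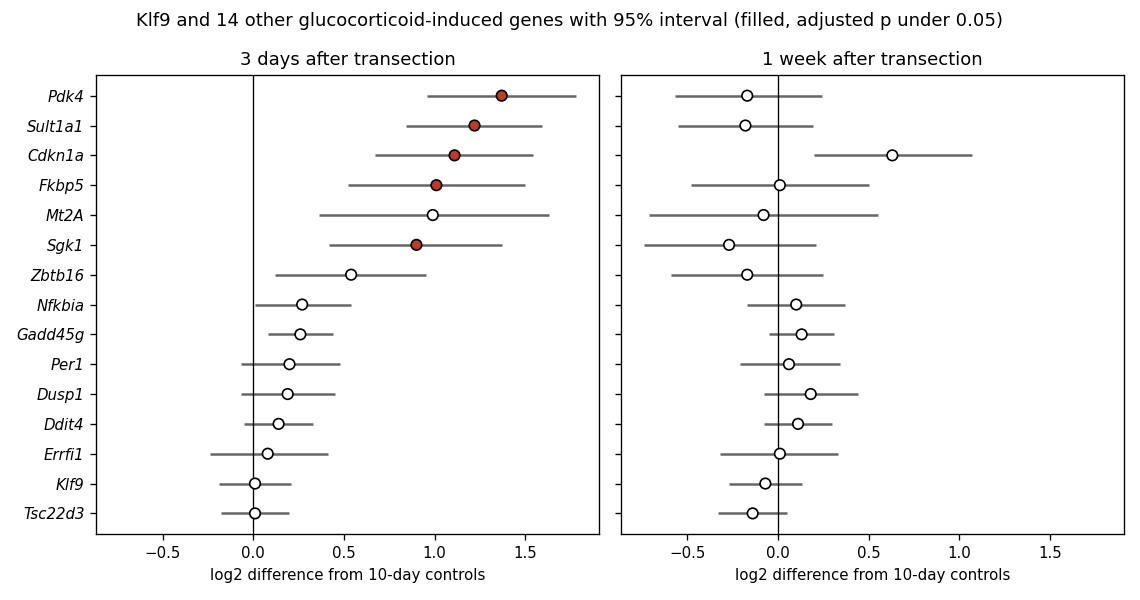
The log2 difference from the 10-day controls (x axis) of Klf9 and 14 other genes that glucocorticoids induce, at 3 days and at 1 week, with the 95% interval of the fit as a line and a filled point where the adjusted p was under 0.05. At 3 days 5 genes are filled and Klf9 and Tsc22d3 sit at 0.01, and at 1 week no gene is filled.

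Transcription factors that act beside the members after nerve injury included 3 that rose at 3 days, beside 2% of all probes that passed as higher. Of 13 measured, Atf3 rose by 2.17 (SE 0.27, adjusted p = 9.55e-05), Stat3 by 0.89 (SE 0.13) and Jun by 0.34 (SE 0.08), and 10 did not pass. The study had already reported these 3 as up-regulated on the same arrays, so they are no independent evidence. With 10-day controls 1 and 2 only, 2 of the 13 passed, and by the methods' t-test 0 did. Atf3, which is known to be induced when an axon is cut, stood between 5.57 and 6.19 in the controls and between 7.59 and 8.57 at 3 days. All 3 also passed in the mean over the 4 times, at 1.35, 0.57 and 0.26, where no member did. The immediate early gene Egr1 was lower at 3 days than at 1 week by -0.77 (SE 0.16), while Atf3 (1.22, SE 0.27) and Stat3 (0.52, SE 0.13) were higher at 3 days, each past the test. With all 12 controls pooled or with the replicate block 1 of these 2 higher calls was left, and by the methods' t-test none of the 3 calls.

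Among genes above the filter, those whose log2 values over the 24 arrays were most like Klf6 were the small heat shock protein Hspb1 (Pearson r = 0.86), the tyrosine-degrading enzyme Hpd (0.84) and the protease inhibitor Serpina3n (0.82). Hspb1 ran from 7.44 to 8.76 in the 10-day controls, 10.34 to 10.73 at 3 days and 8.62 to 9.18 at 1 week. Those most like Sox11 were Map4k1 (0.82), Slc7a7 (0.79) and Dock2 (0.78), of which the kinase Map4k1 and the exchange factor Dock2 are known from blood cells. Slc7a7 and Dock2 passed at 3 days, at 0.64 (SE 0.10) and 0.77 (SE 0.18). For Klf7 they were Rnf19b (0.78), Tspan31 (0.75) and Hipk3 (0.71), for Smad1 Kcnk9 (0.80), Mars1 (0.73) and Capn1 (0.70), and for Sox4 Cfd (0.75), Tmem134 (0.75) and Prdm1 (0.74). For Klf4 they were Anks6 (0.78), Esr1 (0.71) and Fam229b (0.70), for Klf9 Fam117b (0.76), Slc7a9 (0.68) and RT1-M6-1 (0.67), and for Myc Bpifa2 (0.73), Deup1 (0.73) and Depp1 (0.73). Among the members themselves the highest r were 0.53 for Klf4 with Klf9, 0.48 for Sox11 with Klf6 and 0.47 for Klf6 with Klf7. The arrays share the 7 groups and the normalization, and these r describe them only.

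Markers of some other cells also differed from the 10-day controls at 3 days, where 2.89% of all probes passed, and 2% as higher. The microglial and macrophage list had 17 measured genes, of which 10 were higher past the test (Itgam by 1.77, Cd68 by 1.62), and the mean log2 over the list was 8.78 to 9.29 at 3 days against 7.26 to 8.55 in the 10-day controls. For 13 genes of proliferating cells 9 were higher (Ccnb1 by 2.03, Ccna2 by 1.36), with list means of 6.87 to 7.86 against 6.05 to 7.04, and 4 of 11 astrocyte genes were lower (Slc6a11 by -1.34). Itgam, Ccnb1 and Slc6a11 are among the most changed genes that the study reported from these arrays. The lists of oligodendrocytes, of endothelial cells and pericytes, and of Schwann and ependymal cells each had 1 gene that was higher, Cldn11, Tagln and Rarres2. Of 17 neuronal markers, Tubb3 and Gap43 were higher and Ina and Rbfox3 lower, and their list means of 10.29 to 10.61 at 3 days overlapped the 10.44 to 10.60 of the controls. With 10-day controls 1 and 2 only, 6 microglial, 5 proliferation and 0 neuronal, oligodendrocyte and Schwann or ependymal genes passed, and 4 astrocyte genes were lower. With all 12 controls pooled 17 of 17 microglial genes passed, and the methods' t-test called 0 in each list. No marker of these lists stood at the lowest value of the arrays in any animal. Within the 10-day controls, replicate 3 had the lowest microglial mean (7.26) and replicate 1 the highest mean for proliferating cells (7.04). At 1 week the microglial means were 8.31 to 8.79, overlapping the 10-day controls, and Klf6 was at 6.41 to 6.66. At 2 weeks the microglial means were 8.03 and 8.38, above the 3-week controls at 7.38 to 7.72. No gene of the microglial list passed at 1 week or at 2 weeks. The part of these cells in the values of the 8 genes was not tested.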

How the data were processed

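RNA of laser-dissected neurons was hybridized to 24 whole-transcript rat arrays (Affymetrix), 1 for each animal. The authors obtained quantile-normalized values by RMA with GeneSpring GX. The deposited values are of the unit intensity, linear in scale (17 to 7979.81, array medians 73.6 to 81.3), of which log2 was taken. The number of arrays limits the precision. The RNA had been amplified before labeling. The label protocol and the paper's methods name different kits of the same maker, so the kit is not settled here.

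Probes were joined to genes through the platform annotation (1 symbol for 15097 of 27342 probes). Probes with a mean log2 above the 15th percentile (5.05, an intensity of 33.2) were tested, which left 23240. The study's methods keep genes above the same percentile for their networks. The 2 filters do not act alike, since the study's apoptosis list holds the Myc probe that fell under the filter here. Myc was not among the genes of that list that the study reported as changed. The 7 group means were estimated in 1 linear model by limma (version 3.58.1, R version 4.3.3), with Benjamini-Hochberg adjustment over all probes tested and a threshold of 0.05. Exact permutation tests were two-sided over animals. The methods' t-test is the test of 2 groups with equal variances that the study used for genes checked by PCR, not for its calls over the array. Here it was run on the same log2 values of all probes tested, with the same adjustment. It called 0 of all probes at 3 days and 0 between 3 days and 1 week. Its 0 for a list or a member in these comparisons is therefore not particular to them. The fit was tested on simulated data. Summaries and exact tests used Python (3.11.15), pandas (2.3.3), numpy (2.4.6) and scipy (1.17.1).

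The 8 members, the pathway lists and the marker lists were chosen with earlier results of these data known. All 8 members are named in every comparison. From each list, genes past the test are named, up to 4 a comparison, or else the 1 or 2 with the smallest p in the main comparisons, and up to 3 from each cell type list. Further list genes (Sgk1 at 3 days, the other Id genes, L1cam, Cdkn1b, Tsc22d3) were chosen after their values were seen. For each member the 3 genes with the highest Pearson r are named. Array quality weights were low for 10-day controls 3 (0.33) and 4 (0.48), and the results at 3 days were also computed without both. Genome positions are those of GRCr8 in RefSeq tables. The build behind the array annotation is not given in the sources used here.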

Additional observations from a re-analysis of the deposited data

Results flagged for a closer look

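Klf6 was singled out because its effects at 3 days and 1 week differed by a test of the difference itself (log2 difference 0.34). In 5 cases the lowest or highest of 4 animals lay far from the rest of its group. Klf4 and Smad1 were both low in 10-day control 2, at 6.95 against 7.28 to 7.31 and at 6.83 against 7.05 to 7.08. Klf9 was low in 1-week replicate 1, at 6.57 against 6.72 to 6.74, and Sox4 was high in the same animal, at 5.83 against 5.70 to 5.71. Myc was low in 1-week replicate 4, at 4.92 against 5.01 to 5.03. In all 40 groups of 4 were examined for the 8 genes, of which chance alone would single out about 1 in 20.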

How the results depend on the processing

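At 3 days the 1 member called became 0 with the compared groups alone, with 10-day controls 1 and 2 only and by the methods' t-test, and 2 with all 12 controls pooled, and it ran from 1 to 2 when each array was left out in turn. In the mean over the 4 times it was 1 by the methods' 2-factor analysis of variance, against 0, with the 10-day controls counted more than once. It ran from 0 to 1 with each array left out (Sox11 without 5-week control 4 or 1-week animal 2, Klf6 without 2-week animal 4). Between 3 days and 1 week it became 0 with an intensity trend and robust moderation, with array quality weights, with the compared groups alone, with the replicate block and by the methods' t-test, and it was 0 to 1 with each array left out (lost in 15 of 24 cases). Between controls it became 0 after repeated quantile normalization, after cyclic loess, with the compared groups alone and by the methods' t-test, and ran from 0 to 2 (lost without 5-week control 1 or 2 or without 3-week control 2, 3 or 4, and 2 without 10-day control 4, when Klf7 also passed against the 10-day controls at 0.52). The cause of these changes was not tested. The counts of 0 at 1 week, 2 weeks and 1 month, and between the effect at 3 days and those at 2 weeks and 1 month, stayed 0 in every setting run. Arrays that share a replicate number were little more alike than others (mean r 0.0215 against -0.0063, 8 of 24 arrays best with their own number). The sample titles do not say what the numbers stand for, so this does not settle whether the animals were paired. Beyond the comparison of 3 days with 1 week, where Klf6 had 0.37 and an adjusted p of 0.0599 with the replicate block, the block changed no call of a member. Over all probes, the 671 calls at 3 days ranged from 0 by the methods' t-test to 2117 with all 12 controls pooled, and from 419 to 1056 with each array left out. The 2366 calls between 5-week and 3-week controls ranged from 1064 to 5404. Groups of 2 animals at 2 weeks and 1 month give wide intervals, and Myc and Sox4 rest on dim probes.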
